A study of Mus musculus with 6 samples.

Results

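Transcripts of 9 genes used as marks of eosinophils, basophils and mast cells were followed through 6 mouse RNA sequencing libraries, from sorted renal monocytes and from cells of spleen and bone marrow. The genes were Prg2, Epx, Mcpt8, Prss34, Cd200r3, Fcer1a, Ms4a2, Cpa3 and Gata2, and each had its own row among the 24047 rows of the count table. They were picked by name with earlier results of these counts known, among them the spread within the spleen and marrow group. Their levels are therefore given as a description, with no test. All mice were of a strain written C5/Bl6, with no genotype given, were 8 to 10 weeks old, had nephrotoxic nephritis and were killed on day 13. Nephrotoxic nephritis is a model of antibody-driven injury of the glomerulus. The 3 kidney libraries (replicates 7, 8 and 22, named double_pos) came from cells enriched with a monocyte isolation kit and sorted. They were set against 3 libraries of spleen and bone marrow together (replicates 2, 24 and 26, named double), whose isolation the labels do not describe. The markers behind the sort are not named, no group of healthy mice is analysed here, and the source tissue cannot be told apart from how its cells were handled. Whether a replicate is 1 animal or a pool is not stated, so any p-value reflects library-to-library spread alone, which may be technical.

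Total counts were 7938223, 7824387 and 3492391 in kidney replicates 7, 8 and 22, and ranged from 7311991 to 9727489 in spleen and marrow. All 12 monocyte genes listed, among them Csf1r and Ccr2, were detected in every library, and they summed to 35034 to 38090 CPM (counts scaled to library size) in kidney and 46822 to 63747 CPM in spleen and marrow. Transcripts of other cells were present. Kidney tubule genes summed to 77.6 to 524 CPM in kidney and 0.343 to 0.534 CPM in spleen and marrow, and megakaryocyte and red cell genes to 40.5 to 107 CPM and 21.5 to 29.5 CPM. Stem and progenitor genes (20.2 to 105 CPM in kidney, 20.4 to 36.8 CPM in spleen and marrow), T, NK and B cell genes (37.1 to 61.8 and 36.9 to 52.6 CPM) and plasmacytoid dendritic cell genes (30.7 to 79.0 and 35.0 to 43.2 CPM) overlapped between the groups. Endothelial genes summed to 946 CPM in kidney replicate 8, against 32.4 and 22 CPM in kidney replicates 7 and 22. Early granule genes of neutrophils summed to 16431 CPM in kidney replicate 22, against 379 and 1394 CPM in replicates 7 and 8 and 10535 to 12235 CPM in spleen and marrow. Spleen and marrow replicates 24 and 26 were nearly alike. The chi-square of their counts, divided by its degrees of freedom, was 2.86, against 22.2 to 59.7 for the other pairs within a group. They were kept as 2 libraries, though they may not be independent.

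Eosinophils, basophils and mast cells are the granulated cells of allergy and of defence against worms. Eosinophils store cationic proteins and a peroxidase in their granules. Basophils and mast cells carry the high-affinity receptor for IgE, which triggers release of histamine and proteases when antigen links it. All arise from marrow progenitors under GATA transcription factors. Basophils and eosinophils leave marrow mature, whereas mast cells finish in tissue.

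A motif of GATA factors, AGATAA or its reverse complement TTATCT, was searched on both strands of the promoter windows of RefSeq (build GRCm38.p6, 250 bases before to 50 after a start site). Of the 9 genes 8 had an entry, and 5 of these 8 (Fcer1a, Cpa3, Cd200r3, Prss34 and Ms4a2) held the motif. Of all 32851 promoter windows of that length, 11.2% held it. The motif was chosen after the promoters of these genes were seen, so this share is given as background only. Enrichment was not tested. The share also counts windows, not genes, and the 8 genes had 9 windows. The windows of 4 of the 5 genes with the motif are shown, those with every kidney library below every spleen and marrow library. They were thus picked by the same counts. Mcpt8 and Epx showed the same order and did not hold the motif. Capitals mark the motif, and each is written on the strand of its gene.
Cpa3 (chr3:20242132-20242431, minus strand): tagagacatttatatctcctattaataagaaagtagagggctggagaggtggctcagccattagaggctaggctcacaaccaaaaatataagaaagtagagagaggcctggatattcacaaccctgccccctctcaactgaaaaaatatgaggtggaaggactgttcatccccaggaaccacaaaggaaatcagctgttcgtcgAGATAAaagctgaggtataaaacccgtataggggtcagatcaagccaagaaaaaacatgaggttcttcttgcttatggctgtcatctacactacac
Prss34 (chr17:25298144-25298443, plus strand): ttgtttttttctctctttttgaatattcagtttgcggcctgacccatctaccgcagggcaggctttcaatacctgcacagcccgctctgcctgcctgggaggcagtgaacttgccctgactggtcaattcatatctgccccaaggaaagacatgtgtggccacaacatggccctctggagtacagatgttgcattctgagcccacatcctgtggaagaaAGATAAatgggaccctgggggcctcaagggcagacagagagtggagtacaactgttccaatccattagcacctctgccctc
Fcer1a (chr1:173227180-173227479, minus strand): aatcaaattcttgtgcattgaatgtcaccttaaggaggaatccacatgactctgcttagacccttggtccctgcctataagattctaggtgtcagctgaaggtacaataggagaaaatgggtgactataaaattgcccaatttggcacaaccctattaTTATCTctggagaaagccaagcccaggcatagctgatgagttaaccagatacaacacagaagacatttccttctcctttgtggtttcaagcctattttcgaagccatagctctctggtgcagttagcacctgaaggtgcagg
Ms4a2 (chr19:11623670-11623969, minus strand): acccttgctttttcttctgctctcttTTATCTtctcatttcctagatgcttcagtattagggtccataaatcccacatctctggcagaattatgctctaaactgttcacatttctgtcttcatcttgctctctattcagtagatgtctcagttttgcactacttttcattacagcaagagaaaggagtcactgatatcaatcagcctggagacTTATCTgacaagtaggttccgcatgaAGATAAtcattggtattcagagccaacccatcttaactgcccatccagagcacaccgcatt
The motif began 46 bases before the start site in Cpa3, 31 in Prss34, 92 in Fcer1a and 39 in Cd200r3. Ms4a2 held it 3 times, at 224, 37 and 11 bases before the start. Neither window of Gata2 held these letters. A match is not shown to be a bound site, and none of these coordinates was joined to the counts, which use build mm9.

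All 9 transcripts were found in every spleen and marrow library, and all but Gata2 had at most 2 counts in kidney replicates 7 and 8. Counts were 0 for 7 of the 9 genes in kidney replicate 7, for 6 in replicate 8 and for 5 in replicate 22, and for none in any spleen and marrow library. The 9 genes together summed to 0.591, 6.93 and 188 CPM over kidney replicates 7, 8 and 22, against 263, 1681 and 1708 CPM in spleen and marrow replicates 2, 24 and 26. For 6 genes (Epx, Mcpt8, Prss34, Fcer1a, Ms4a2 and Cpa3) every kidney library lay below every spleen and marrow library. Among the 10626 genes tested, 18.8% showed this order, which is given as the background and supports nothing here because the same counts chose the genes. A filter on low counts was passed by 5 genes (Prg2, Mcpt8, Prss34, Fcer1a and Cpa3), by way of the spleen and marrow libraries where they are high. Epx and Ms4a2 did not pass it, so they are not among the genes tested. In such samples, fewer cells of a type and less RNA per cell cannot be told apart.

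**Figure D1:**
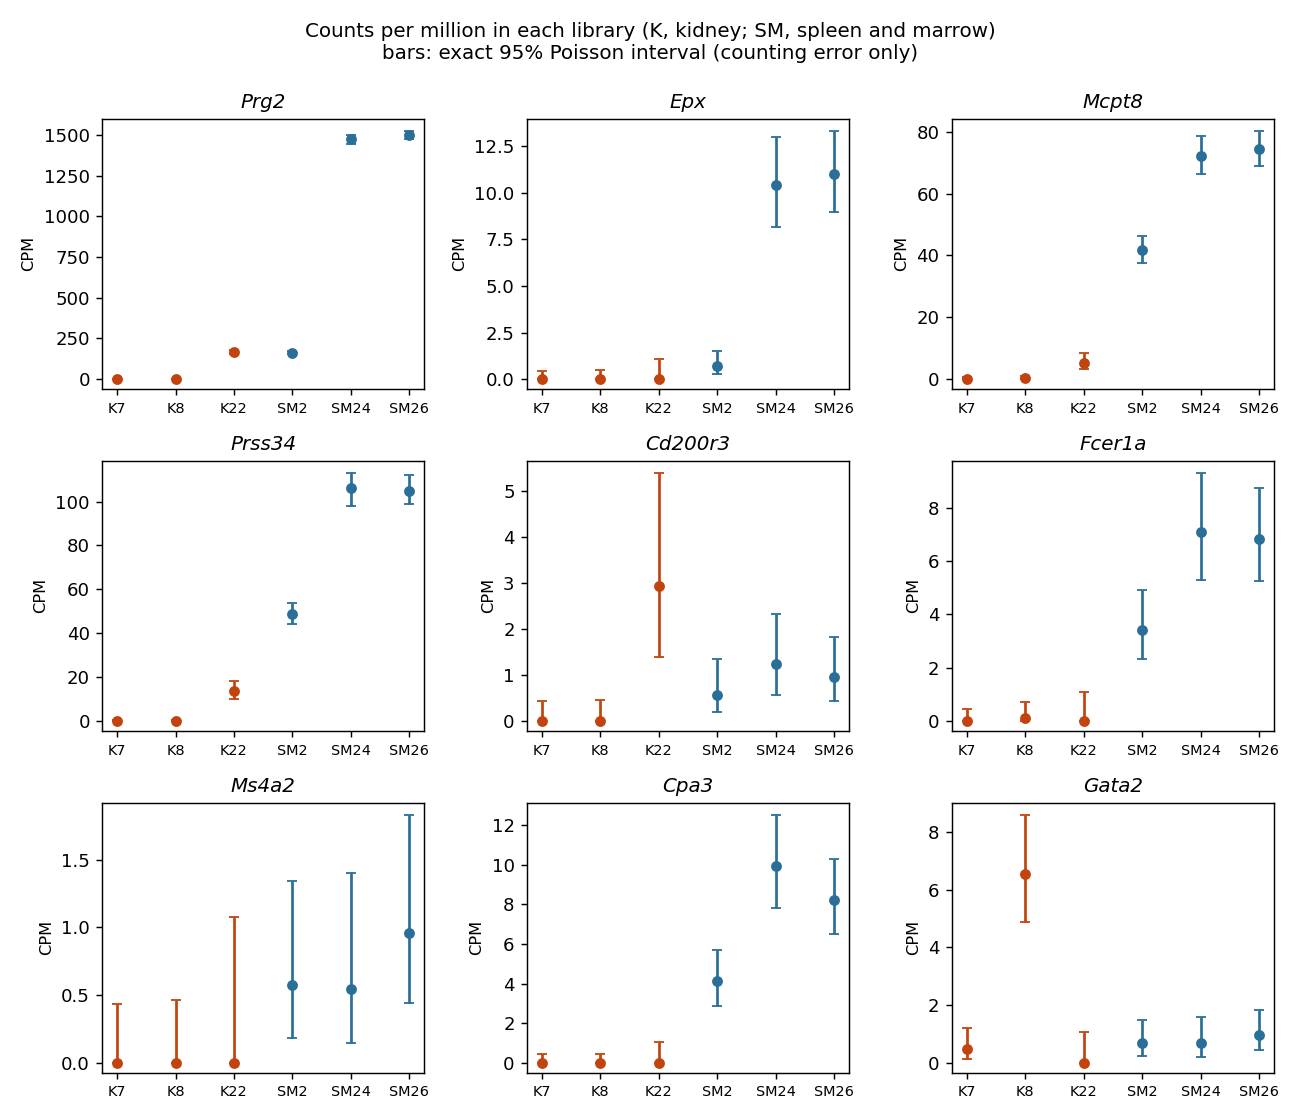
Level of each of the 9 genes (CPM, linear axis from 0) in kidney (K7, K8, K22, orange) and spleen and marrow libraries (SM2, SM24, SM26, blue), with exact 95% Poisson intervals for counting error. Prg2 in K22 (167 CPM) sits at the level of SM2 (163 CPM), and Gata2 is highest in K8 (6.55 CPM).

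Prg2 encodes the major basic protein, which makes up the crystal core of the eosinophil granule, and was the most abundant of the 9. It had 0, 0 and 569 counts in kidney replicates 7, 8 and 22, against 1422, 10803 and 14032 counts in spleen and marrow replicates 2, 24 and 26. These are 0, 0 and 167 CPM in kidney, against 163, 1473 and 1499 CPM in spleen and marrow. The groups overlap, since kidney replicate 22 equals spleen and marrow replicate 2 within counting error (ratio 1.02, exact 95% interval 0.927 to 1.13). A count of 0 allows up to 0.354 and 0.378 CPM (3 counts) in kidney replicates 7 and 8. Kidney averaged 55.5 ± 96.2 CPM and spleen and marrow 1045 ± 764 CPM (SD, n = 3 each), so the SD exceeded the mean in kidney. Replicate 22 was also the kidney library richest in each of the 11 early granule transcripts. Against spleen and marrow these were split. Mpo stood at 37.2 CPM in kidney replicate 22, against 356, 221 and 233 CPM in spleen and marrow replicates 2, 24 and 26, while Ngp was 3.32 times its level in spleen and marrow replicate 2. The part of such cells in the Prg2 level was not tested.

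Epx encodes eosinophil peroxidase, the oxidant-making enzyme of the granule matrix. It had no count in any kidney library, against 6, 76 and 103 counts (0.687, 10.4 and 11 CPM) in spleen and marrow replicates 2, 24 and 26. Taking 3 counts over the kidney group as the floor, the pooled level was at least 48.1-fold lower in kidney. Of the 185 spleen and marrow counts pooled, replicate 2 held 6, so this bound does not hold against that library alone. In kidney replicate 22 the floor of 3 counts is 0.878 CPM, above the level of spleen and marrow replicate 2, so a level like that one was not detectable there. Per transcript length, the authors' FPKM values (fragments per transcript length and depth) put Prg2 far above Epx, at 1064 and 1.75 FPKM in replicate 24 and 1067 and 1.88 FPKM in replicate 26.

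Mcpt8 and Prss34 encode serine proteases that mark basophils in the mouse. Mcpt8 had 1, 2 and 18 counts in kidney replicates 7, 8 and 22, against 364, 530 and 697 in spleen and marrow replicates 2, 24 and 26. Its levels were 0.118, 0.252 and 5.27 CPM in kidney, against 41.7, 72.3 and 74.5 CPM in spleen and marrow, with no overlap. The log2 ratio of the group means was -5.06, and -8.42 without kidney replicate 22. Prss34 had 0, 0 and 47 counts in the kidney libraries, against 427, 774 and 985 in the spleen and marrow libraries. This is 0, 0 and 13.8 CPM in kidney and 48.9, 106 and 105 CPM in spleen and marrow, with a log2 ratio of the group means of -4.24. Without kidney replicate 22 there is no count left and no ratio. Of the kidney counts of Mcpt8 and Prss34, replicate 22 held 18 of 21 and 47 of 47.

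Cd200r3 encodes an activating receptor of the CD200 receptor family found on mouse basophils and mast cells. It had 0, 0 and 10 counts in kidney replicates 7, 8 and 22, against 5, 9 and 9 counts in spleen and marrow replicates 2, 24 and 26. Kidney replicate 22 was thus the highest library, at 2.93 CPM (exact 95% interval 1.40 to 5.38), against 0.572, 1.23 and 0.962 CPM in spleen and marrow. Its ratio to spleen and marrow replicates 2, 24 and 26 was 5.11 (1.59 to 19.1), 2.39 (0.871 to 6.63) and 3.04 (1.11 to 8.47). Of the words of 50 bases in Cd200r3 transcripts of the GENCODE M21 set, 2.79% also occur in transcripts of other genes, so some of these few counts may be shared. For Ms4a2 it was 2.1%, and no word was shared for Prg2, Epx, Mcpt8, Prss34, Fcer1a, Cpa3 or Gata2.

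The IgE receptor is built of an alpha chain that binds IgE (Fcer1a), a beta chain that amplifies the signal (Ms4a2) and a gamma chain shared with other Fc receptors (Fcer1g). Fcer1a had 0, 1 and 0 counts in kidney replicates 7, 8 and 22, against 30, 52 and 64 counts in spleen and marrow replicates 2, 24 and 26. The spleen and marrow levels were 3.43, 7.09 and 6.84 CPM, and the log2 ratio of the group means was -7.11, resting on 1 kidney count. Ms4a2 had no kidney count, against 5, 4 and 9 counts (0.572, 0.545 and 0.962 CPM) in the spleen and marrow libraries. The pooled level was at least 4.68-fold lower in kidney, a bound that would be smaller against spleen and marrow replicate 2 or 24 alone. In kidney replicate 22 the floor of 0.878 CPM lies above spleen and marrow replicates 2 and 24. Fcer1g averaged 7219 ± 43.0 CPM over the kidney libraries and 6108 ± 399 CPM over those of spleen and marrow (SD, n = 3 each). Its log2 fold change, 0.24 ± 0.10 (SE), was not called (edgeR adjusted p = 0.168). The chain shared with other receptors was thus abundant in every library, while the alpha and beta chains were scarce in all 6.

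Cpa3 encodes carboxypeptidase A3, a granule protease of mast cells that basophils also express. It had no kidney count, against 36, 73 and 77 counts (4.12, 9.95 and 8.23 CPM) in spleen and marrow replicates 2, 24 and 26. The pooled level was at least 48.3-fold lower in kidney, a bound that would be smaller against replicate 2 alone. Counting intervals in spleen and marrow ran from 2.89 CPM to 12.5 CPM, and all lay above the highest upper limit in kidney, 1.08 CPM in replicate 22.

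Gata2 encodes the transcription factor that basophil and mast cell fates need, and which blood progenitors and endothelium also express. It went the other way in 1 library. Counts were 4, 52 and 0 in kidney replicates 7, 8 and 22, against 6, 5 and 9 in spleen and marrow replicates 2, 24 and 26. Levels were 0.472, 6.55 and 0 CPM in kidney, against 0.687, 0.682 and 0.962 CPM in spleen and marrow. Kidney replicate 8 stood alone. The other two kidney libraries had lower values than spleen and marrow, but this is not resolved at their depth. The exact 95% interval was 0.129 to 1.21 CPM in replicate 7, and 3 counts are 0.878 CPM in replicate 22. Without replicate 8 the log2 ratio of the group means was -1.75, against 1.59 with it. Replicate 8 was also the kidney library with the highest sums of endothelial genes and of stem and progenitor genes. Emcn reached 369.8 CPM there, against 6.73 and 1.17 CPM in kidney replicates 7 and 22, and the endothelial list summed to 8.04 to 12.9 CPM in spleen and marrow. Stem and progenitor genes summed to 105 CPM in replicate 8, against 64.1 and 20.2 CPM in kidney replicates 7 and 22. Single genes of that list went both ways. Cd34 stood at 52.9 CPM in replicate 8, against 2.83 and 0 CPM in kidney replicates 7 and 22. Flt3 stood at 21.7 CPM there, against 52 and 5.56 CPM. The part of endothelium or progenitors in the Gata2 level was not tested.

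**Figure D2:**
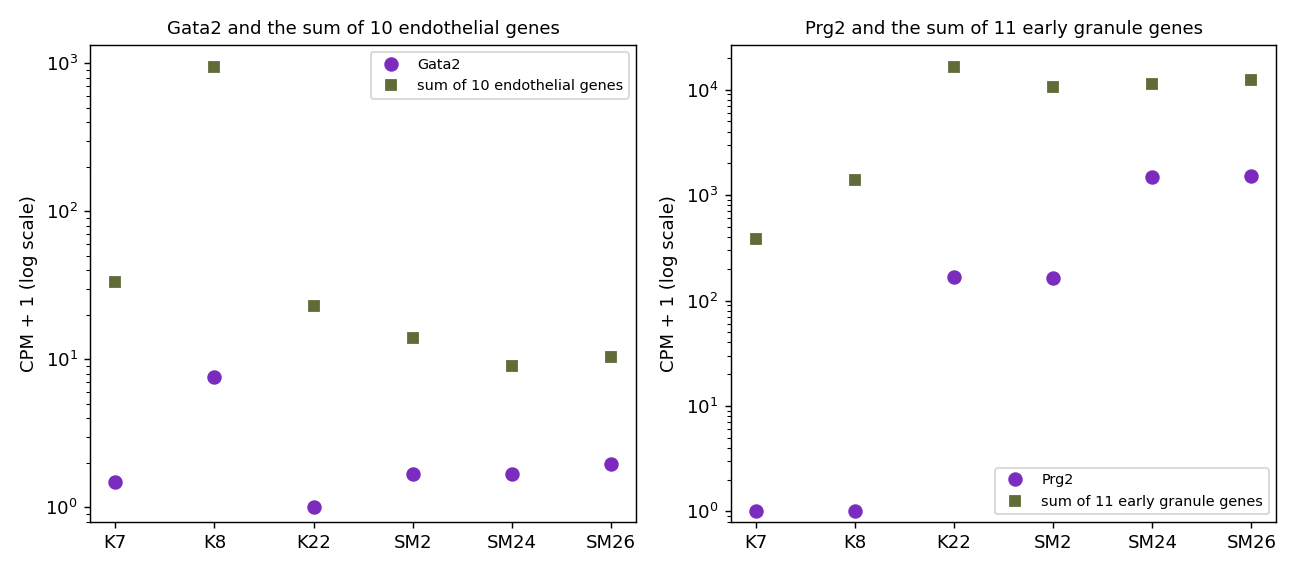
Left, Gata2 and the sum of 10 endothelial genes; right, Prg2 and the sum of 11 early granule genes, in each library (CPM + 1, log axis; kidney K7, K8, K22, then spleen and marrow SM2, SM24, SM26). Gata2 and the endothelial sum (946 CPM) are both highest in K8, while Prg2 is 9.05 and 9.21 times higher in SM24 and SM26 than in SM2. The early granule sums of SM2, SM24 and SM26 are similar, but single genes in them moved both ways. Their ratios of SM24 to SM2 ran from 0.411 to 1.73. The list includes genes of later granules, among them Ngp, at 8119.5 CPM in K22, where Mpo, of primary granules, was at 37.2 CPM.

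The make-up of the 9-gene counts in kidney replicate 22 was like that of spleen and marrow replicates 24 and 26 for the abundant genes, and differed in Cd200r3. Prg2 made up 88.4% of its 644 counts of the 9 genes (exact 95% binomial interval 85.6 to 90.7), against 61.8%, 87.6% and 87.8% in spleen and marrow replicates 2, 24 and 26. Prss34 made up 7.30% there (5.41 to 9.59), against 18.6%, 6.28% and 6.16% in spleen and marrow. For Mcpt8 the share was 2.80% (1.66 to 4.38), against 15.8%, 4.30% and 4.36%. Each of these 3 intervals held the shares of replicates 24 and 26 but not that of replicate 2. Cd200r3 made up 1.55% (0.747 to 2.84) in kidney replicate 22, against 0.217%, 0.073% and 0.0563% in spleen and marrow replicates 2, 24 and 26. Cpa3 and Fcer1a had no count of the 644, which allows up to 0.571% each (upper limit of the interval). Their shares were 1.56% and 1.3% in spleen and marrow replicate 2, but 0.592% and 0.422% in replicate 24, so for Fcer1a a difference from replicate 24 was not detectable at this depth. For Cpa3 the limit lay just under the share of replicate 24, within that share's own interval (0.465 to 0.744). Epx also had no count of the 644, with the same limit, against 0.261%, 0.617% and 0.644% in spleen and marrow replicates 2, 24 and 26. The limit lay under the Epx shares of replicates 24 and 26, within their own intervals (0.486 to 0.771 and 0.526 to 0.781). Kidney replicates 7 and 8 had 5 and 55 counts of the 9 genes, of which Gata2 took 80.0% and 94.5%.

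**Figure D3:**
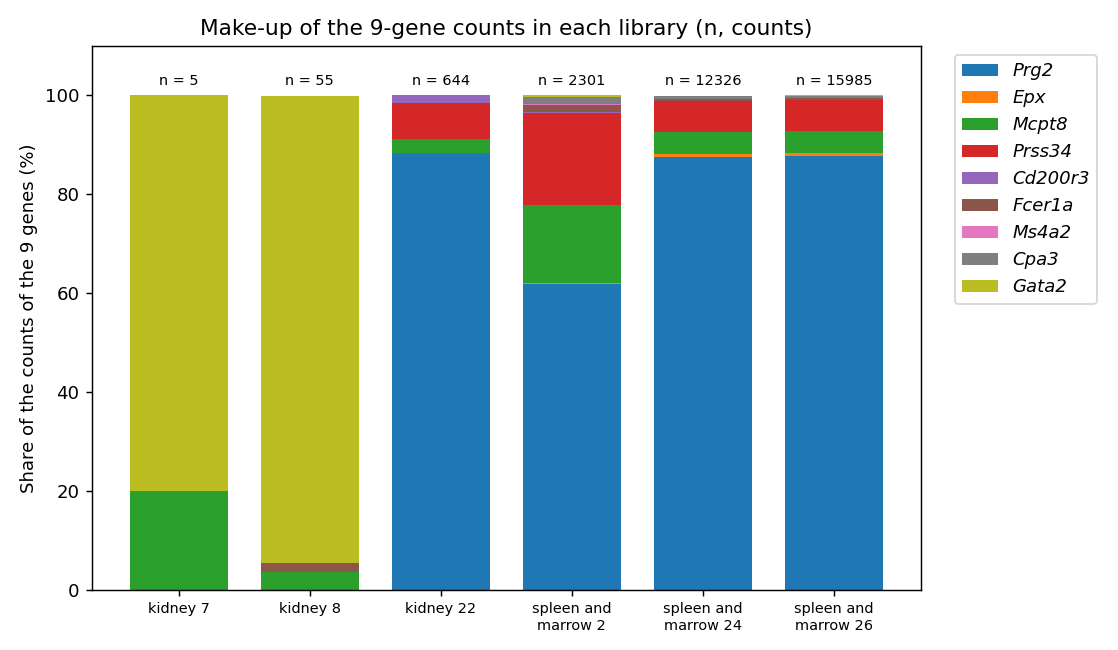
Share of each gene in the counts of the 9 genes (%), by library, with the number of counts above each bar. Gata2 fills most of the bars of kidney replicates 7 and 8 (5 and 55 counts), and Prg2 most of the others, 61.8% in spleen and marrow replicate 2 and 87.6% in replicate 24.

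The 3 spleen and marrow libraries differed among themselves, and by more for the eosinophil granule genes than for the basophil ones. Prg2 stood 9.05 times higher in replicate 24 than in replicate 2 (exact 95% interval 8.56 to 9.57) and 9.21 times higher in replicate 26 (8.72 to 9.73). Epx stood 15.1 times higher (6.62 to 42.4) and 16.0 times higher (7.11 to 44.7). Against this, Mcpt8 stood 1.73 and 1.79 times higher in replicates 24 and 26, Prss34 2.16 and 2.15, Fcer1a 2.06 and 1.99, and Cpa3 2.42 and 2.00 times higher. The intervals of Prg2 and Epx overlapped none of these, whose highest upper limit was 3.71. For Cd200r3, Ms4a2 and Gata2 the intervals held 1 in both pairs. Between replicates 26 and 24, all 9 intervals held 1. These intervals cover counting error only, and the libraries have no replicates of their own.

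Of the 8 genes with at least 10 counts over the pair, 6 stood at least 2-fold higher in replicate 24 than in replicate 2, where 2.57% of 10361 tested genes did. In replicate 26 it was 3 of 9, where 2.01% of 10379 did. None of the 9 stood at least 2-fold lower in replicate 24 or 26, where 2.26% and 2.36% of tested genes did. Prg2 and Epx were the 2 that stood at least 5-fold higher, in both replicates, where 0.174% and 0.116% of tested genes did. The spread among these libraries was one of the reasons the genes were chosen, so these shares are only a description. The backgrounds also hold only genes that passed the filter, which Epx, Cd200r3, Ms4a2 and Gata2 did not. Cd200r3 counts among the 6 on a ratio of 2.14 whose interval held 1 (0.645 to 8.14). Several other eosinophil genes, which were not among the 9, were also lowest in replicate 2. Prg3, a second major basic protein gene, stood at 6.18, 43.5 and 50.3 CPM in spleen and marrow replicates 2, 24 and 26, and Ear1, an eosinophil ribonuclease gene, at 15.5, 105 and 100.1 CPM. Of the 10 listed eosinophil genes with a count in the pair, the interval of the ratio of replicate 24 to 2 lay above 1 for 7 and below 1 for none. Over 10516 tested genes with a count in that pair, 17.7% lay above and 19.7% below, so intervals away from 1 are common here. Of the 10 eosinophil genes, Ear10, Siglec5, Ccr3 and Il5ra were not among the tested genes. Siglec5, a surface receptor gene of eosinophils, had 0.572, 1.5 and 0.534 CPM, with no such order. Early granule genes of neutrophils were split. Of 11, replicate 24 had 5 with an interval below 1 and 4 above it. The primary granule gene Ctsg had a ratio of 0.411 (0.391 to 0.431) and Mpo 0.620 (0.583 to 0.658), whereas Ngp, of later granules, had 1.73 (1.70 to 1.76). What sets these libraries apart was not tested.

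**Figure D4:**
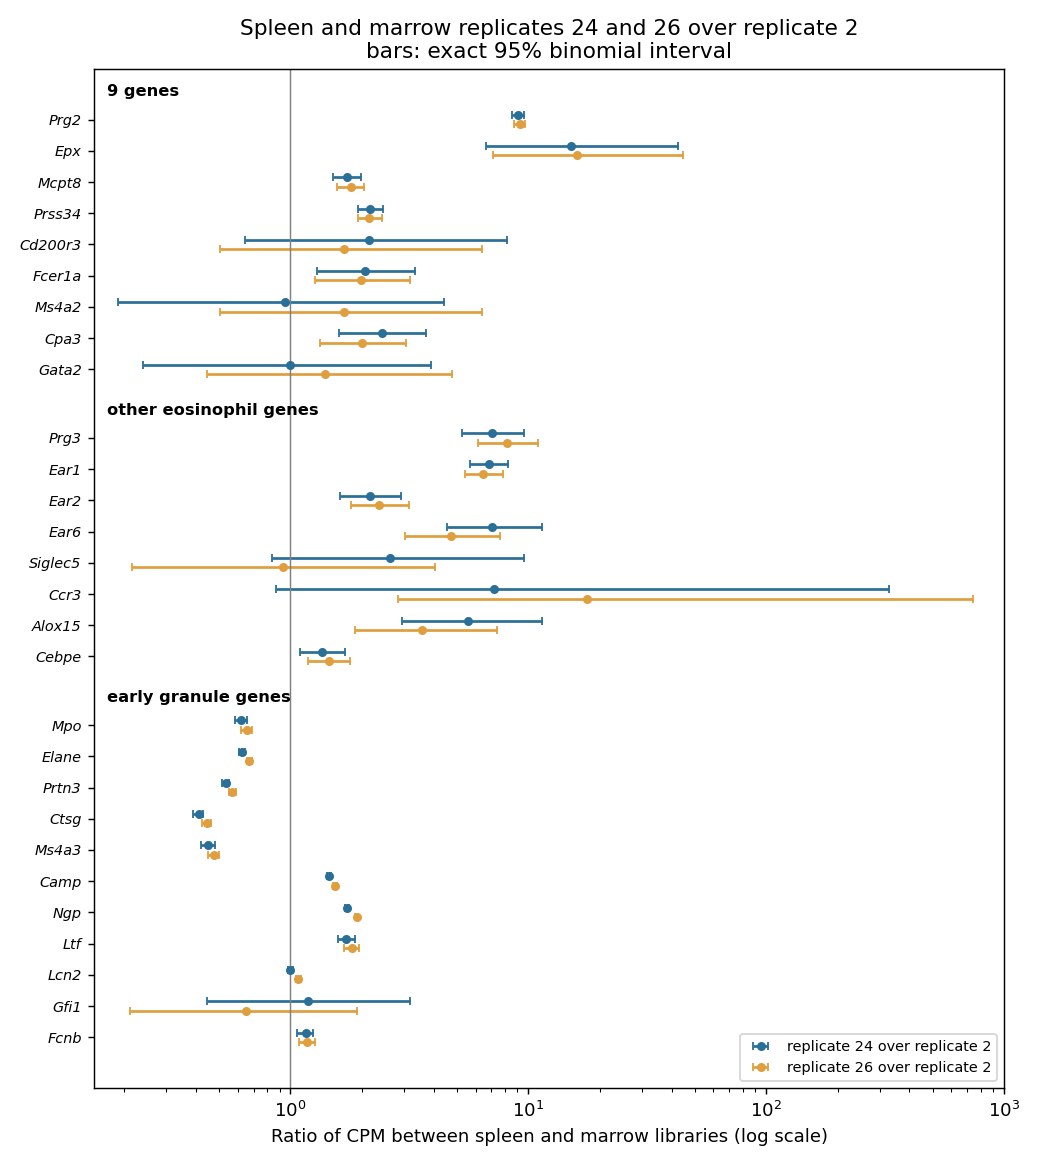
Ratio of CPM in spleen and marrow replicates 24 (blue) and 26 (yellow) to replicate 2 (log axis), with exact 95% binomial intervals, for the 9 genes, other eosinophil genes and early granule genes. Prg2, Epx, Prg3 and Ear1 lie far right of 1, Mcpt8, Prss34, Fcer1a and Cpa3 near 2, and Mpo, Elane, Prtn3, Ctsg and Ms4a3 left of 1.

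Other genes of these cells, of the IgE receptor pathway and of its receptors and regulators were read in 6 lists that hold none of the 9, with 96 rows in all. Of these rows 19 were at 0 in every library and 51 passed the filter. edgeR called 4 higher and 2 lower in kidney among the 51 (7.84% and 3.92%), where it called 7.83% higher and 5.90% lower of all 10626 genes. The median log2 fold change of the 51 was -0.15, against 0.05 over all genes tested.

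The 12 eosinophil genes with a row summed to 8.86, 12.0 and 101 CPM over kidney replicates 7, 8 and 22, against 53.7, 223 and 218 CPM over spleen and marrow replicates 2, 24 and 26. Of them 6 were tested and edgeR called 0, with 2 lower and 0 higher at an unadjusted p under 0.05, where 12.5% of all genes tested were lower and 15.4% higher. DESeq2 called 0 of them, where it called 11% of all genes higher and 9.39% lower. limma-voom called 1 lower, Cebpe, where it called 6.94% of all genes higher and 7.89% lower. For Ear1 the log2 fold change was -4.02 ± 1.5 (SE; edgeR adjusted p = 0.126) and Cebpe, a regulator of granule genes, -0.68 ± 1.23 (edgeR adjusted p = 0.766). The calls turn on kidney replicate 22, which had 16.7 CPM of Ear1 against 0.118 and 0 in kidney replicates 7 and 8, and 45.7 CPM of Cebpe against 0.591 and 1.51. Without that library edgeR called 5 of the 6 lower (Prg3, Ear1, Ear6, Alox15 and Cebpe), with log2 fold changes from -9.94 to -4.54 and adjusted p of at most 0.0126, where 14.3% of 10988 genes were called higher and 11.1% lower. All 10 tested early granule genes were called lower in the same fit, against 2 with replicate 22 kept, and their part was not tested. The library left out was the kidney library highest in all these genes, which favours calls of lower in advance. Prg3, Ear1, Ear6 and Alox15 had at most 3 counts in kidney replicates 7 and 8. They passed the filter by way of the spleen and marrow libraries, where they are high. These numbers of calls are thus a description only. Ear1 and Ear2 share 57.4% and 41.5% of their words of 50 bases with other genes, and their counts are uncertain. The surface marks of mature eosinophils were scarce. Il5ra, which encodes the IL-5 receptor alpha chain, had 0 counts in all libraries but spleen and marrow replicate 24, which had 6. Ccr3, the eotaxin receptor gene, had 3, 1 and 0 counts in kidney replicates 7, 8 and 22, against 1, 6 and 19 in spleen and marrow replicates 2, 24 and 26. Siglec5 had 3, 7 and 11 counts in the same kidney libraries, against 5, 11 and 5 in those of spleen and marrow. It was highest in kidney replicate 22, at 3.22 CPM, on few counts.

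Most listed mast cell proteases were not detected. Of 17 mast cell genes, 10 were at 0 in every library, among them the tryptase genes Tpsb2 and Tpsab1 and the chymase-type genes Mcpt1 and Mcpt4, which allows up to 0.354, 0.378 and 0.878 CPM each in kidney replicates 7, 8 and 22. The chymase gene Cma1 had 0 counts in every kidney library, against 0, 5 and 6 in spleen and marrow replicates 2, 24 and 26. Kit, the stem cell factor receptor gene, had 0, 25 and 4 counts in kidney, against 2, 1 and 5 in spleen and marrow. The whole list summed to 26.7, 66.5 and 69.4 CPM over the kidney libraries, against 8.93, 8.45 and 9.29 CPM over those of spleen and marrow. Of 4 tested mast cell genes edgeR called 2 higher and 0 lower in kidney, where it called 7.83% higher and 5.90% lower of all genes tested. The 2 called higher encode proteins that macrophages also make. Hpgds, a prostaglandin D synthase gene, had 3.90, 18.5 and 24.3 CPM in kidney replicates 7, 8 and 22, against 0.343, 0.136 and 0.321 CPM in spleen and marrow (log2 fold change 5.74 ± 0.84, edgeR adjusted p = 0.00522). Mitf, a transcription factor gene, had 11.9, 14.1 and 34.5 CPM in kidney, against 5.84, 4.64 and 4.49 CPM in spleen and marrow (2.00 ± 0.47, edgeR adjusted p = 0.0283). Leaving out spleen and marrow replicate 2, 24 or 26 ended the call of Mitf, with an edgeR adjusted p of up to 0.139. Summing replicates 24 and 26 ended it too, and limma-voom did not call Hpgds. Ltc4s, the leukotriene C4 synthase gene, had 9.10, 28.8 and 0.585 CPM in kidney replicates 7, 8 and 22, against 0.801, 1.09 and 1.71 CPM in spleen and marrow. Its log2 fold change of 3.42 ± 1.07 was not called (edgeR adjusted p = 0.0742), but DESeq2 called it, and so did edgeR without kidney replicate 22 (adjusted p = 0.00309).

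Of 13 basophil genes 4 were tested and edgeR called 0, with none at an unadjusted p under 0.05 and 0 called by DESeq2. The list summed to 39.2 to 88.8 CPM in kidney, which overlaps the 69.0 to 87.6 CPM of spleen and marrow. Hdc, whose enzyme makes histamine, had 0.827, 3.27 and 0 CPM in kidney replicates 7, 8 and 22, against 5.04, 5.18 and 6.41 CPM in spleen and marrow (log2 fold change -1.90 ± 0.90, edgeR adjusted p = 0.214). Il4, the cytokine gene of activated basophils, had 0, 0 and 2 counts in kidney, against 3, 6 and 9 in spleen and marrow. Osm, a cytokine gene that monocytes express too, was the most abundant, averaging 49.6 ± 22.4 CPM over the kidney libraries and 59.2 ± 11.4 CPM over those of spleen and marrow (SD, n = 3 each).

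Of 15 tested IgE receptor signalling genes edgeR called 0, with 5 higher and 2 lower at an unadjusted p under 0.05, against 15.4% and 12.5% of all genes. DESeq2 called 2 higher and 1 lower, against 11% and 9.39% of all genes. The kinase gene Lyn averaged 190 ± 42.3 CPM over the kidney libraries and 206 ± 16.5 CPM over those of spleen and marrow (SD, n = 3 each). Of 8 tested receptors and ligands edgeR called 2 higher and 0 lower, where it called 7.83% higher and 5.90% lower of all genes tested. Ccl24, which encodes the eosinophil attractant eotaxin-2, had 32.5, 42.1 and 97.8 CPM in kidney replicates 7, 8 and 22, against 1.72, 1.36 and 0.855 CPM in spleen and marrow replicates 2, 24 and 26. Its log2 fold change was 5.43 ± 0.54 (edgeR adjusted p = 0.00114), and it kept its call under all 15 alternatives. Csf2rb2, a beta chain for IL-3, rose by 0.99 ± 0.25 on the log2 scale (edgeR adjusted p = 0.0385). That call ended on leaving out kidney replicate 7 or spleen and marrow replicate 2, 24 or 26 (edgeR adjusted p up to 0.195). It was also lost with no filter, with replicates 24 and 26 summed and on both FPKM scales, and held in 7 of 15 alternatives. The cytokine genes Il3, Il5 and Csf2 and the eotaxin gene Ccl11 had no count in any library. Kidney thus held the transcript of an eosinophil attractant in all 3 libraries, and counts of Prg2 in 1.

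Of 14 tested lineage regulators edgeR called 2 lower and 0 higher, where it called 5.90% lower and 7.83% higher of all genes tested. Myb, a progenitor factor, had 0.472, 1.01 and 0 CPM in kidney replicates 7, 8 and 22, against 5.38, 4.91 and 4.38 CPM in spleen and marrow (log2 fold change -3.10 ± 0.78, edgeR adjusted p = 0.0368). Xbp1, a factor of secretory cells that eosinophils need, had 196, 211 and 222 CPM in kidney, against 294, 301 and 318 CPM in spleen and marrow, and fell by 0.54 on the log2 scale (edgeR adjusted p = 0.0254). Both calls ended on leaving out kidney replicate 7 or spleen and marrow replicate 2, 24 or 26 (edgeR adjusted p up to 0.168 and 0.138). Both were also lost with replicates 24 and 26 summed. The call of Xbp1 was lost without kidney replicate 8 and on both FPKM scales too, and that of Myb with no filter. Of 15 alternatives, 9 kept the call of Myb and 7 that of Xbp1. Gata1, the GATA factor of eosinophils and red cells, had no kidney count, against 1, 2 and 5 counts in spleen and marrow.

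**Figure D5:**
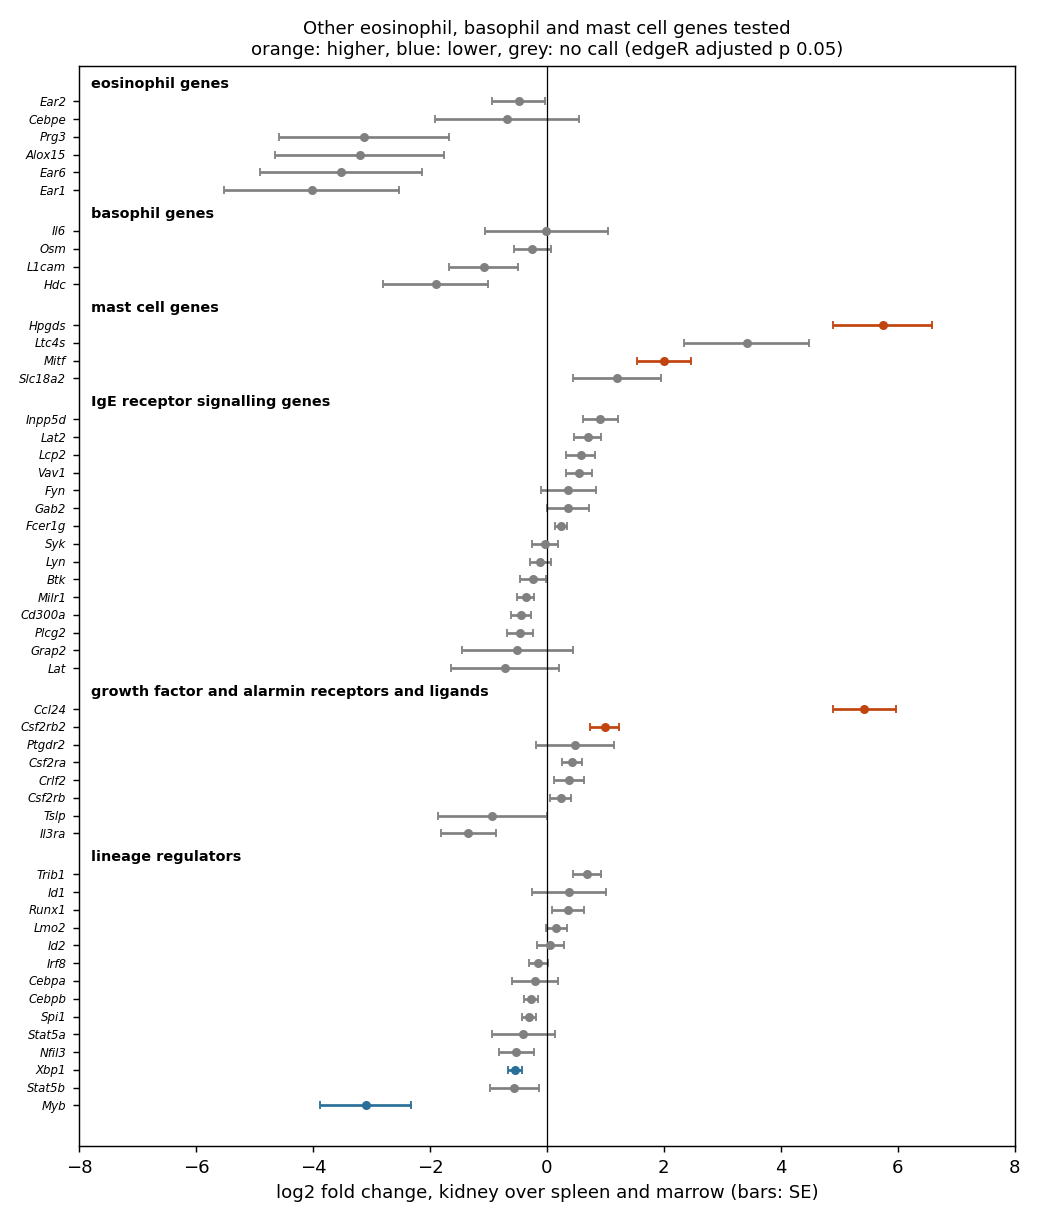
Log2 fold change of kidney over spleen and marrow (edgeR, bars SE) for the 51 tested genes of the 6 lists, grouped by list. The 4 genes called higher (orange: Hpgds, Mitf, Ccl24, Csf2rb2) and the 2 called lower (blue: Xbp1, Myb) stand among 45 with no call.

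Across the 6 libraries, the 8 other genes whose log2 CPM followed the log2 sum of the 9 most closely were Msantd3, Fanca, Usp25, C1rl, A530064D06Rik, Limd2, Reep4 and Rassf4, with Pearson r from 0.986 to 0.997 (n = 6). The 6 points fall into 2 groups and differ in depth, 98 of 10524 genes had r over 0.95, and no test is given. Msantd3 had 7.44, 11.2 and 22 CPM in kidney replicates 7, 8 and 22, against 22.9, 28.8 and 29.9 CPM in spleen and marrow replicates 2, 24 and 26. Among the listed eosinophil genes, Ear6 had r = 0.973 and Ear1 r = 0.957.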

How the data were processed

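RNA was measured in 6 libraries made from 2 ng of RNA with SMART-Seq v4 and ThruPLEX reagents, per the labels' protocols, a chemistry that does not mark strand. The deposited count table holds whole-number raw counts per gene symbol, and the deposited FPKM table, made by the authors, is scaled by depth and transcript length. Build mm9, Cufflinks 2.2.1, STAR 2.5 and bcl2fastq 2.18 are listed per the submitters' processing notes. Which program counted reads, and on which annotation, was not stated there. Counts were fitted with edgeR 4.0.16 in R 4.3.3 (filterByExpr, which left 10626 genes, TMM scaling, quasi-likelihood F test, two-sided, Benjamini-Hochberg over all genes tested, threshold 0.05), kidney over spleen and marrow. SE is the log2 fold change over the square root of F. CPM uses the TMM-adjusted library size. Intervals are exact (95%, Poisson or binomial, scipy 1.17.1), each from the counts of 1 library or of 1 pair. The interval of the pooled Cd200r3 ratio is instead from counts summed over each group. Like the floor of 3 counts, all these intervals cover counting error only, since reads carry no molecular identifiers. FPKM served for levels between genes and as an alternative (limma 3.58.1), and DESeq2 1.42.0 was another, with limma-voom, other scalings and filters, and leaving out each library. The fit was tested on simulated counts.

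The 9 genes, the 14 lists (185 entries, 184 with a row, 1 of them, Siglecf, matched as Siglec5 by its RefSeq synonym) and the tests were chosen with earlier results of these data known. The motif was chosen after the promoters were seen. Named genes were all 9, in each list up to 4 called genes per direction by smallest p and the 2 most abundant, and the 8 genes most alike. Others named (Prg3, Ear2, Ear6, Alox15, Il5ra, Ccr3, Kit, Ltc4s, Siglec5, Cma1, Mcpt1, Mcpt4, Tpsb2, Tpsab1, Il4, Il3, Il5, Csf2, Ccl11, Gata1, Mpo, Elane, Ms4a3) were chosen after their values were seen. Figures were drawn with matplotlib 3.10.9.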

Additional observations from a re-analysis of the deposited data

How the results depend on the processing

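Over all genes, 832 were higher and 627 lower in kidney. Leaving out 1 library gave 260 to 1569 higher and 179 to 1215 lower (the most without kidney replicate 22, the fewest without spleen and marrow replicate 26). Summing replicates 24 and 26 gave 299 and 201, a threshold of 0.01 gave 322 and 189, log2(FPKM + 1) gave 468 higher, log2(FPKM + 0.1) gave 543 higher and DESeq2 gave 995 lower. Of the 6 lists, 4 were called higher and 2 lower. Leaving out 1 library gave 2 to 8 higher and 0 to 7 lower. Summing replicates 24 and 26 gave 2 and 0, a threshold of 0.01 gave 2 and 0, DESeq2 gave 7 higher, and 1 was lower with no filter, log2(FPKM + 1) or log2(FPKM + 0.1). The log2 ratio of the mean summed CPM of the 9 genes was -4.22. It ran from -8.34 to -3.62 on leaving out 1 library (the lowest without kidney replicate 22) and was -6.67 on log2(FPKM + 1) and -7.73 on log2(FPKM + 0.1), where means are taken of logs. Cd200r3 had a log2 ratio of 0.08, which was -0.15 and -1.07 on the 2 FPKM scales and ran from -0.19 (without spleen and marrow replicate 2) to 0.692 (without kidney replicate 8) on leaving out 1 library other than kidney replicate 22, without which it has no kidney count and no ratio. Pooling counts gave a ratio of 0.558 (0.237 to 1.22), in the other direction from the means. Gata2 had 1.59, and ran from -1.75 (without kidney replicate 8) to 2.17 (without kidney replicate 22), with 0.203 and 0.429 on the FPKM scales. By more than 1 SD, Mcpt8 moved (-5.06) to -8.42 without kidney replicate 22, -4.49 and -4.52 without 7 and 8, and -6.24 on log2(FPKM + 0.1). On the scales log2(FPKM + 1) and log2(FPKM + 0.1), Prg2 (-4.23) moved to -6.84 and -9.05 and Fcer1a (-7.11) to -1.90 and -4.81, and Prss34 (-4.24) to -6.67 on the second. On the FPKM scales means are taken of logs after adding 1 or 0.1, whereas the main value is the log ratio of mean CPM. How much of each shift comes from this was not tested. Epx, Ms4a2 and Cpa3, with no kidney count, have no ratio here, nor have Prg2 and Prss34 without kidney replicate 22 or Fcer1a without 8. The other 42 values that answer a comparison and 55 of single genes stayed within 1.5 times or 1 SD. No paired analysis was possible because kidney and spleen and marrow share no replicate number. Depth limits the scarce members, since 3 counts are 0.321 to 0.878 CPM.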

Other observations

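Among 10348 tested genes with counts in the spleen and marrow libraries, 8 stood at least 5-fold lower in replicate 2 than in both replicate 24 and replicate 26. They were chosen for this after their values were seen. Of these 8, 3 were eosinophil genes (Prg2, Prg3 and Ear1), and the others were Gzma, 5430425K12Rik, Tinagl1, Scrg1 and Mmp9. Gzma, a killer cell protease gene, stood at 1.49, 15.7 and 20.2 CPM in spleen and marrow replicates 2, 24 and 26, against 2.01, 13.2 and 10.5 CPM in kidney replicates 7, 8 and 22.

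Another 6 genes stood at least 5-fold higher in replicate 2 than in both others. They were Il1a, Cxcl1, Cxcl2, Tnf, Gdf15 and Irak1bp1, of which Il1a, Cxcl1, Cxcl2 and Tnf encode inflammatory cytokines or neutrophil-drawing chemokines. Cxcl2 stood at 798, 126 and 114 CPM in spleen and marrow replicates 2, 24 and 26, and Cxcl1 at 37.4, 0.682 and 0.962 CPM. These 6 were picked for being highest in replicate 2, and the low Prg2 and Epx there was known beforehand. The opposite order of the 2 sets among the 3 spleen and marrow libraries was therefore fixed by selection. Kidney did not follow that order. Cxcl1 stood at 5.79, 24.6 and 44.5 CPM and Cxcl2 at 165, 542 and 151 CPM in kidney replicates 7, 8 and 22. Whether the 2 are linked was not tested.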
